A study of Mus musculus with 24 samples.

Results

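The 9 genes described here act in the calcium signal of egg activation and in the calmodulin-dependent kinases and phosphatase that read it. They are the calmodulin genes *Calm2* and *Calm3*, the kinase genes *Camk2g*, *Camk2d* and *Camk1d*, the calcineurin gene *Ppp3ca*, and the channel genes *Itpr1*, *Trpm7* and *Cacna1h*. They were chosen by symbol, and each symbol matched 1 of the 55471 genes in the files. A further 61 genes of calcium signaling form a pathway list.

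At fertilization the sperm triggers repeated releases of calcium from the endoplasmic reticulum of the egg, and the IP3 receptor encoded by *Itpr1* is the release channel. Calcium enters from outside through channels such as the TRP channel of *Trpm7* and the T-type channel subunit of *Cacna1h*, which refill the store. Calcium bound to calmodulin activates CaMKII, whose gamma form, encoded by *Camk2g*, is the form the mouse egg needs to leave metaphase II arrest. Calmodulin also activates CaMKI, of which *Camk1d* encodes the delta form, and calcineurin, of which *Ppp3ca* encodes the alpha catalytic subunit.

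The samples were oocytes and embryos of wild-type B6D2F1 mice (C57BL/6 J x DBA/2N). Oocytes in metaphase II (MII) came from superovulated females, with the cumulus cells taken off by hyaluronidase. Embryos came from superovulated females mated to B6D2F1 males, and zygotes were cultured in KSOM medium to the late 1-cell stage (L1C) or the late 2-cell stage (L2C). SLIM-seq, a low-input form of m6A immunoprecipitation, gave 3 IP and 3 input libraries at each of the 3 stages. A second experiment gave 6 libraries of L2C embryos, 3 from zygotes injected with Cas13d mRNA and crRNAs against the m6A reader gene *Ythdc1* (KD) and 3 injected with Cas13d mRNA alone (Ctrl), so that both groups carried Cas13d and neither received a non-targeting crRNA. The labels do not say that replicates came from separate animals or cultures, so the p-values measure the spread between these libraries, which may be technical.

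Total counts ranged from 11107421 to 39739950 in the SLIM-seq libraries and from 8696476 to 14500548 in the 5 KD and Ctrl libraries that cover the whole annotation. KD replicate 3 covers 25739 genes, which hold 6 of the 9 members. The stage labels were checked against marker genes. In inputs, 7 oocyte markers summed to 7610 to 8723 CPM (counts divided by library size, on one common scale) at MII and 732 to 758 CPM at L2C, and 6 markers of the 2-cell stage summed to 6.31 to 7.40 CPM at MII and 387 to 528 CPM at L2C. A list of 8 cumulus cell markers summed to 21.0 to 22.3 CPM at MII, 9.22 to 10.0 CPM at L1C and 247 to 269 CPM at L2C, where *Amhr2* alone averaged 256 CPM. Of the cumulus markers at MII, *Cyp11a1* averaged 13.9 CPM, *Inhba* 2.83 CPM, *Tnfaip6* 2.34 CPM, *Star* 1.72 CPM, *Amhr2* 0.708 CPM, *Has2* 0.190 CPM and *Foxl2* 0.0499 CPM, and *Ptx3* was at 0 in every input. The 5 sperm markers summed to at most 3.00 CPM at MII and L1C, and to 55.6 to 73.7 CPM at L2C, of which *Prm1* made up 61.9 CPM on average. The part of these markers in the differences described below was not tested.

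*Calm2* and *Calm3* encode the same protein from different bases, and their values rest on telling these sequences apart, so the start of each is shown from the GENCODE M21 transcripts of the GRCm38 genome. The coding sequences of *Calm2* (chromosome 17, 87433412 to 87446935, minus strand) and *Calm3* (chromosome 7, 16915379 to 16924114, minus strand) are each 447 bases long. All 149 codons encode the same amino acid or the stop in both, while the bases are the same at 82.6% of positions. Bases 1 to 150 of each coding sequence are given from the start codon in GRCm38, with capitals at the 23 positions where *Calm2* and *Calm3* differ.
Calm2: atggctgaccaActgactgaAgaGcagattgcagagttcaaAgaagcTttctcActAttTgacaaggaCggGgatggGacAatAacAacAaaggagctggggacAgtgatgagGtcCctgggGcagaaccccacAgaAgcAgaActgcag
Calm3: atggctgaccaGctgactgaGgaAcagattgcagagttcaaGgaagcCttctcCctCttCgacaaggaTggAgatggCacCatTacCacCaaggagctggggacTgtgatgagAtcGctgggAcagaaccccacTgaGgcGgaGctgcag
The coding sequence is a small part of each gene, since exons of *Calm2* cover 10.8% and those of *Calm3* 27.7% of their spans of 13.5 kb and 8.7 kb. Processed copies of calmodulin sequences elsewhere in the genome were not examined, and counts of genes that share reads with such copies are uncertain.

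The first question was how the RNA of these genes changed from the oocyte to the 2-cell embryo. *Calm2* and *Calm3* rose at each step, and *Camk2g* fell at each step. *Trpm7* rose from L1C to L2C, *Camk1d* peaked at L1C, and *Itpr1*, *Ppp3ca* and *Cacna1h* fell at each step. Input counts were fitted with the quasi-likelihood test of edgeR over the 9 inputs, with Benjamini-Hochberg (BH) adjustment over the 19903 genes tested, and a change was called at an adjusted p under 0.05. Between MII and L1C, 4 of the 9 members rose and 4 fell, where 56.2% of all genes tested were called, 31.9% higher and 24.3% lower. In the step to L2C, 3 members rose and 6 fell, where 82.9% of genes were called, 44.1% higher and 38.8% lower. Over the whole interval 4 members rose and 4 fell, where 84.6% of genes were called, 47.5% higher and 37.1% lower. The members' median log2 changes were 0.21, -0.47 and -0.69, against 0.16, 0.17 and 0.40 over all genes tested, and with DESeq2 size factors the latter became 0.12, 0.30 and 0.48. From L1C to L2C and over the whole interval most genes were called, as were the members. From MII to L1C 8 of the 9 members were called against that 56.2% of genes, and leaving out 1 library at a time gave 5 to 8. CPM values are shares of a library, so a change in a gene's RNA per embryo and a change in total RNA cannot be told apart. The same holds in these bulk samples for fewer cells of a type and less RNA per cell.

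*Calm2* was at 5.81, 6.29 and 5.92 CPM in the 3 MII inputs, at 96.0, 78.2 and 58.4 CPM at L1C, and at 482, 309 and 394 CPM at L2C. The 3 stages did not overlap, and *Calm2* rose by 3.69 on the log2 scale (SE 0.21, edgeR adjusted p = 6.4e-09, n = 3 per stage) up to L1C and by 2.35 (SE 0.19, edgeR adjusted p = 2.8e-08) after it, 65.7-fold in all. *Calm3* was at 0.818, 1.65 and 1.69 CPM at MII, 2.07, 4.92 and 2.64 CPM at L1C and 17.5, 16.6 and 22.7 CPM at L2C. It rose by 1.23 on the log2 scale (SE 0.35, edgeR adjusted p = 0.0082) and then by 2.56 (SE 0.31, edgeR adjusted p = 2.1e-06). The first of these *Calm3* calls was lost without L1C input replicate 2, where the log2 change was 0.77 (edgeR adjusted p = 0.058).

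Among the kinases, *Camk2g* (chromosome 14, 20734875 to 20794088, minus strand) was the abundant CaMKII gene of the egg. Its inputs held 527, 556 and 570 CPM at MII, 176, 199 and 222 CPM at L1C and 46.7, 52.2 and 44.8 CPM at L2C. The stages were far apart, with log2 changes of -1.47 (SE 0.12, edgeR adjusted p = 2.6e-07) and then -2.05 (SE 0.12, edgeR adjusted p = 1.2e-09), 11.5-fold lower in all. *Camk2d* (chromosome 3, 126596302 to 126846326, plus strand), the delta form, was near the lower limit of the data with 12 to 70 counts per input library. It was at 1.38, 1.30 and 0.678 CPM at MII, 2.96, 1.62 and 2.84 CPM at L1C and 0.813, 0.811 and 0.499 CPM at L2C. The rise to L1C (log2 1.13, SE 0.37, edgeR adjusted p = 0.018) was lost without MII replicate 3 (edgeR adjusted p = 0.074), L1C replicate 1 (0.065) or L1C replicate 3 (0.058), whereas the fall to L2C (log2 -1.82, SE 0.38, edgeR adjusted p = 4.3e-04) kept its call without each of the 9 inputs in turn.

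*Camk1d* (chromosome 2, 5293457 to 5714515, minus strand) has the longest span of the members, 421.1 kb. Its counts cover this whole span, of which exons make up 1.76%, and the part of introns in them was not tested. Its inputs held 122, 136 and 157 CPM at MII, 293, 286 and 275 CPM at L1C and 191, 190 and 234 CPM at L2C. L1C was highest in every library, 2.06-fold above MII (log2 1.04, SE 0.13, edgeR adjusted p = 1.3e-05) and above L2C (log2 change from L1C to L2C -0.48, SE 0.13, edgeR adjusted p = 0.0032). The level at L2C exceeded that at MII by 0.57 on the log2 scale (SE 0.13, edgeR adjusted p = 8.4e-04), but the mean TPM of the same inputs was 2.58 at MII and 2.30 at L2C with overlapping libraries, so this direction depended on the scaling. *Ppp3ca* (chromosome 3, 136670124 to 136937727, plus strand) was at 17.1, 16.8 and 18.6 CPM at MII, 12.9, 9.72 and 11.6 CPM at L1C and 2.30, 2.63 and 1.43 CPM at L2C. Most of its fall came at the later step, where the log2 change was -2.46 (SE 0.22, edgeR adjusted p = 1.1e-07) after -0.61 (SE 0.20, edgeR adjusted p = 0.019). The earlier call was lost without MII replicate 3 (edgeR adjusted p = 0.056) or L1C replicate 2 (0.068).

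The channel genes split. *Itpr1* (chromosome 6, 108213096 to 108551109, plus strand) was at 139, 126 and 137 CPM at MII, 92.4, 80.0 and 100 CPM at L1C and 60.8, 68.8 and 69.4 CPM at L2C. It fell by 0.56 on the log2 scale to L1C (SE 0.12, edgeR adjusted p = 0.0014) and by 0.46 to L2C (SE 0.12, edgeR adjusted p = 0.0032), 2.02-fold in all, and no stages overlapped. *Cacna1h* (chromosome 17, 25374285 to 25433783, minus strand) was at 18.7, 21.1 and 20.2 CPM at MII, 12.7, 16.0 and 16.4 CPM at L1C and 10.6, 12.4 and 9.47 CPM at L2C. The stages did not overlap, and the level fell 1.85-fold in all (edgeR adjusted p = 1.8e-04). Its first step (log2 -0.41, edgeR adjusted p = 0.048) lost its call without 7 of the 9 inputs, with adjusted p between 0.053 and 0.15, without TMM scaling (edgeR adjusted p = 0.08) and with no filter on low counts (0.055). Its later step (log2 -0.47, edgeR adjusted p = 0.017) lost its call without L1C replicate 3 (0.051) or L2C replicate 3 (0.075), and with DESeq2 (log2 -0.34, DESeq2 adjusted p = 0.061).

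*Trpm7* (chromosome 2, 126791565 to 126876230, minus strand) went the other way. It was at 14.5, 14.2 and 13.2 CPM at MII, 19.6, 16.4 and 12.4 CPM at L1C and 81.2, 56.6 and 71.0 CPM at L2C. MII and L1C overlapped, with a log2 difference of 0.21 (SE 0.18, edgeR adjusted p = 0.34), and L2C was 4.30-fold above L1C (log2 2.10, SE 0.18, edgeR adjusted p = 6.5e-08). Under scaling to library size alone, the called members had the same direction between stages, *Camk1d* included.

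**Figure D1:**
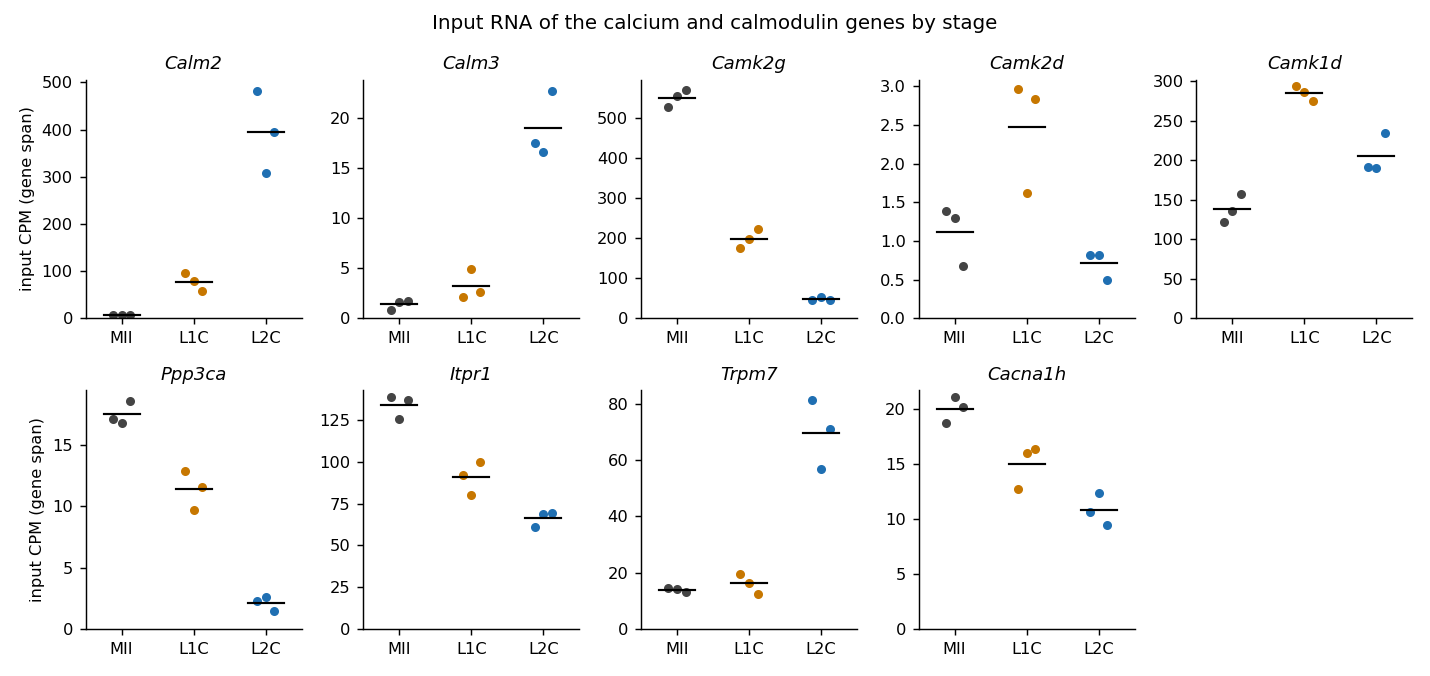
Input RNA of the 9 members at MII, L1C and L2C in CPM over the gene span, TMM-scaled over the 9 inputs (points are libraries, lines the mean of 3, each panel with its own axis from 0). *Calm2*, *Calm3* and *Trpm7* are highest at L2C, *Camk1d* and *Camk2d* at L1C, and the other members at MII.

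Levels were compared between genes only per length. TPM here divides by the whole gene span, introns included, so its order need not be that of spliced transcripts. Exons cover 1.76% of the span of *Camk1d* and 27.7% of that of *Calm3*. In MII inputs the mean TPM was 73.5 for *Camk2g*, 3.57 for *Calm2*, 3.12 for *Itpr1*, 2.65 for *Cacna1h*, 2.58 for *Camk1d*, 1.30 for *Trpm7*, 1.28 for *Calm3*, 0.515 for *Ppp3ca* and 0.0354 for *Camk2d*. In this order only *Cacna1h* with *Camk1d* and *Trpm7* with *Calm3* had libraries that overlapped. At L2C *Calm2* (142 TPM), *Calm3* (10.6 TPM) and *Trpm7* (3.92 TPM) stood above or level with *Camk2g* (3.85 TPM), the libraries of *Trpm7* and *Camk2g* overlapping. In exon CPM per kb of the Ctrl embryos the order was *Calm2* at 2765, *Calm3* at 19.6, *Trpm7* at 8.51, *Camk2g* at 6.45, *Itpr1* at 4.46, *Camk1d* at 1.42, *Cacna1h* at 0.880, *Ppp3ca* at 0.520 and *Camk2d* at 0.0490, with no overlap between neighbours.

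Of the 61 pathway genes, 51 were tested between stages. In the first step 18 rose and 12 fell, in the second 17 rose and 25 fell, and over the whole interval 20 rose and 26 fell, with median log2 changes of 0.43, -0.62 and -0.47. Of all genes tested 31.9% rose and 24.3% fell in the first step, 44.1% and 38.8% in the second and 47.5% and 37.1% over the interval, with medians of 0.16, 0.17 and 0.40. The plasma membrane calcium pump gene *Atp2b1* had the largest rise to L1C, from 290 to 2242 CPM on average (log2 2.95, SE 0.13, edgeR adjusted p = 3.7e-10). The store-operated channel gene *Orai3* had the largest fall (log2 -1.89, SE 0.23, edgeR adjusted p = 1.1e-05). From L1C to L2C the phospholipase C gene *Plcd4* averaged 0.0813 and then 71.6 CPM, the protein kinase C gene *Prkcd* 10.4 and then 267 CPM, and *Fbxo43*, which encodes the APC/C inhibitor Emi2 that CaMKII marks for destruction, fell by 3.38 on the log2 scale (SE 0.12, edgeR adjusted p = 1.0e-11).

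Genes with input profiles most like those of *Camk1d* and *Camk2g* were ranked by Pearson r of log2(CPM + 1) over the 9 inputs, among 14848 protein-coding genes. For *Camk1d* they were *Rad23b* (r = 0.9919), *Zfp618* (r = 0.9841) and *Nusap1* (r = 0.9781), and 66 genes had r above 0.95. For *Camk2g* they were *Sash1* (r = 0.9995), *Smn1* (r = 0.9990) and *Golm1* (r = 0.9989), and 1630 genes had r above 0.95. The 9 points share 3 stages, so these values describe stage profiles.

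The second question was which of these RNAs were enriched by the m6A antibody. *Camk1d* was the member with the highest IP over input at each stage, *Itpr1* and *Cacna1h* were depleted from the IP at all 3 stages, *Calm2*, *Trpm7* and *Ppp3ca* had a log2 IP/input above 0 at each stage, and *Camk2g*, *Camk2d* and *Calm3* had either sign. The study had picked *Camk1d* from genes it called m6A-tagged in these SLIM-seq libraries, so its enrichment here is not independent evidence. All 18 libraries were fitted together, with 21950 genes tested. At MII 1 member was higher in the IP and 2 were lower, where 38.6% of all genes were called, 17.7% higher and 21.0% lower. With DESeq2 5 members were called (40.8% of genes) and by library size alone 6 (42.4%), those gained being higher in the IP. At L1C 4 were higher and 2 lower, with 33.9% of genes called, 15.8% higher and 18.2% lower. Leaving out 1 library at a time gave 2 to 6 called at L1C, against 26.9% to 34.2% of genes. At L2C 5 were higher and 3 lower, with 44.0% of genes called, 22.0% higher and 22.0% lower. Input values in these comparisons are scaled over all 18 libraries and so differ from those between stages. TMM sets the typical gene near a log2 IP/input of 0, and the median over all genes was 0.00, 0.07 and 0.09 at the 3 stages. By library size alone these medians were 0.20, 0.37 and 0.34, and the share of called genes that were higher in the IP went from 45.7% to 61.7% at MII, from 46.5% to 70.9% at L1C and from 50.0% to 67.6% at L2C, so the values describe enrichment relative to other RNAs.

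*Camk1d* held 1465, 938 and 1613 CPM in the MII IPs against 149, 163 and 186 CPM in the inputs, an 8.05-fold enrichment (log2 3.01, SE 0.30, edgeR adjusted p = 1.9e-07, n = 3 and 3). At L1C the IPs held 464, 540 and 1103 CPM against 336, 325 and 309 CPM, and at L2C 1301, 1805 and 825 CPM against 185, 180 and 226 CPM. IP and input did not overlap at any stage. The enrichment was 2.17-fold at L1C (log2 1.12, SE 0.28, edgeR adjusted p = 0.0047) and 6.65-fold at L2C (log2 2.73, SE 0.30, edgeR adjusted p = 8.3e-07). L1C IP replicate 3 stood above the other 2, and without it the log2 IP/input at L1C was 0.63 (edgeR adjusted p = 0.058).

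The difference in enrichment between stages was tested as an interaction. The log2 IP/input of *Camk1d* was lower at L1C than at MII by 1.89 (log2 difference -1.89, SE 0.40, edgeR adjusted p = 0.0054) and higher at L2C than at L1C by 1.61 (SE 0.40, edgeR adjusted p = 0.016), while L2C and MII differed by -0.28 (SE 0.40, edgeR adjusted p = 0.71). Leaving out each of the 18 libraries in turn kept both calls. The *Camk1d* input was highest at L1C, where the ratio was lowest. Between MII and L1C 1 of the 9 members was called in this test, as lower, where 7.33% of all genes were called, 3.13% higher and 4.21% lower. With DESeq2 3 members were called, against 10.1% of genes. Those gained were *Camk2g* as higher (log2 0.42, DESeq2 adjusted p = 0.027) and *Calm3* as lower (log2 -1.40, DESeq2 adjusted p = 0.039). Between L1C and L2C 1 was higher and 1 lower, where 9.47% were called, 5.00% higher and 4.47% lower, and between MII and L2C 2 were higher, where 20.3% were called, 11.1% higher and 9.21% lower. The share of called genes that were higher went from 42.6% to 53.3% by library size alone in the first of these, and from 52.8% to 42.5% with DESeq2 in the second.

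*Itpr1* was at 69.5, 80.2 and 67.0 CPM in the MII IPs against 170, 151 and 163 CPM in the inputs. At L1C the IPs held 49.8, 54.5 and 50.0 CPM against 106, 91.0 and 113 CPM, and at L2C 42.3, 42.4 and 41.1 CPM against 58.8, 65.1 and 67.2 CPM. Every IP lay below every input of its stage, and the log2 IP/input was -1.16 at MII (SE 0.11, edgeR adjusted p = 6.8e-08), -1.0 at L1C (SE 0.11, edgeR adjusted p = 8.0e-07) and -0.60 at L2C (SE 0.11, edgeR adjusted p = 1.8e-04). The depletion was smaller at L2C than at MII by 0.56 on the log2 scale (SE 0.15, edgeR adjusted p = 0.013), a call lost with no filter on low counts (0.12), in a replicate block (0.054) and with only both stages fitted (0.081). *Cacna1h* averaged 12.5 CPM in IP and 24 CPM in input at MII, 11.3 and 17.1 CPM at L1C, and 5.65 and 10.4 CPM at L2C, with edgeR adjusted p of 2.8e-04, 0.013 and 6.5e-04. By library size alone its L1C depletion lost its call (edgeR adjusted p = 0.18), as it did without L1C input replicate 3 (0.051) or L1C IP replicate 2 (0.053).

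*Camk2g* lay within 0.37 of its inputs on the log2 scale at every stage, and *Camk2d* was enriched at L2C. *Camk2g* held 590, 627 and 564 CPM in the MII IPs against 645, 667 and 678 CPM in the inputs, which was not called (log2 -0.16, SE 0.10, edgeR adjusted p = 0.25). At L1C the IPs were higher, at 288, 258 and 280 CPM against 201, 227 and 249 CPM (log2 0.29, SE 0.10, edgeR adjusted p = 0.04), and at L2C lower, at 39, 32.9 and 34.8 CPM against 45.2, 49.5 and 43.4 CPM (log2 -0.37, SE 0.11, edgeR adjusted p = 0.0084). The L1C call was lost without 10 of the 18 libraries (edgeR adjusted p 0.051 to 0.21), with no filter (0.19), in a replicate block (0.092) and with only L1C fitted (0.11), and by library size alone the log2 IP/input was 0.08 at MII and -0.12 at L2C with no call at either. The interaction from L1C to L2C was -0.65 (SE 0.15, edgeR adjusted p = 0.0093). *Camk2d*, at 17 to 143 counts per IP library, was at 1.16, 0.894 and 1.05 CPM in the MII IPs against 1.69, 1.56 and 0.806 CPM in the inputs, which overlapped. At L2C its IPs held 2.82, 1.38 and 2.49 CPM against 0.787, 0.768 and 0.483 CPM (log2 1.75, SE 0.35, edgeR adjusted p = 5.6e-04). Its log2 IP/input was higher at L2C than at MII by 2.17 (SE 0.52, edgeR adjusted p = 0.0053).

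*Calm2* was higher in the IP at L1C (132 against 88.2 CPM on average, log2 0.58, SE 0.19, edgeR adjusted p = 0.023) and at L2C (617 against 380 CPM, log2 0.70, SE 0.19, edgeR adjusted p = 0.0057). At MII its log2 IP/input was 0.54 (SE 0.22, edgeR adjusted p = 0.058), and it was called with DESeq2 (DESeq2 adjusted p = 0.017), by library size alone (edgeR adjusted p = 0.0077), with no filter (0.0078), with only MII fitted (0.032) and under thresholds after the study, an unadjusted edgeR p under 0.05, a log2 above 0 and over 1 count in each input. The further condition of the study on single replicates was not applied. *Calm3*, at 19 to 106 counts in MII and L1C inputs, was at 0.85, -0.51 and -0.42 with no call (edgeR adjusted p = 0.075, 0.26 and 0.27), and its 3 MII IPs did not overlap its inputs. At MII *Calm3* was called by the same alternatives, with DESeq2 (log2 0.92, DESeq2 adjusted p = 0.029), by library size alone (edgeR adjusted p = 0.023), with no filter (0.017), with only MII fitted (0.03) and under those thresholds. Its log2 IP/input was lower at L2C than at MII by 1.27 (log2 difference -1.27, SE 0.47, edgeR adjusted p = 0.064), which was called with DESeq2 (DESeq2 adjusted p = 0.025), with no filter (0.0059) and with only both stages fitted (0.0083). *Trpm7* was called higher at L1C (log2 0.50, edgeR adjusted p = 0.036) and at L2C (log2 0.54, edgeR adjusted p = 0.015), of which the second was lost without L2C input replicate 2 (log2 0.39, edgeR adjusted p = 0.096). The L1C calls of *Calm2* and *Trpm7* were lost without 4 and 5 of the libraries, all L1C libraries, at edgeR adjusted p up to 0.14 and 0.19, and that of *Trpm7* also with only L1C fitted (0.054). *Ppp3ca* was called at L2C, with IPs of 3.36, 3.77 and 4.28 CPM against inputs of 2.23, 2.5 and 1.39 CPM (log2 0.92, SE 0.19, edgeR adjusted p = 7.7e-04). At L1C it was called by library size alone (log2 0.53, edgeR adjusted p = 0.023).

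**Figure D2:**
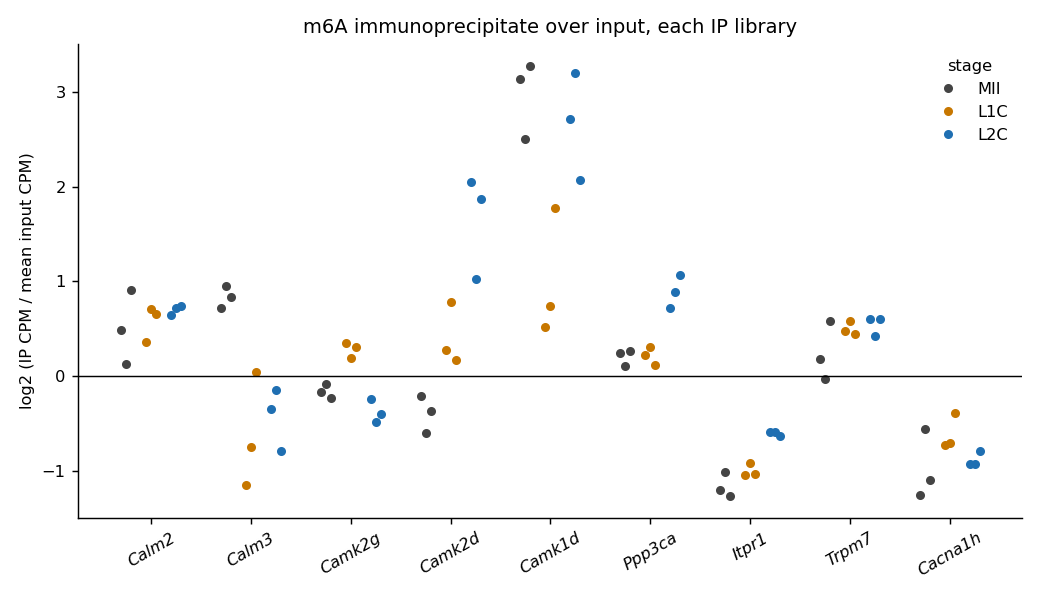
Log2 of each IP library over the mean of the 3 inputs of its stage, in TMM-scaled CPM, for the 9 members at MII, L1C and L2C (points are IP libraries, the line marks equal IP and input). *Camk1d* lies above all other genes at MII and L2C, from 2.07 to 3.28, and *Itpr1* and *Cacna1h* lie below 0 in every IP library.

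In the pathway list 53 genes were tested, and the IP was higher for 13 and lower for 17 in oocytes, higher for 6 and lower for 14 in L1C embryos, and higher for 13 and lower for 9 in L2C embryos. Over all genes tested 17.7% were higher and 21.0% lower in oocytes, 15.8% and 18.2% at L1C, and 22.0% and 22.0% at L2C. The calcium pump gene *Atp2a2*, which refills the endoplasmic reticulum, was among the 3 highest at each stage, with log2 IP/input of 1.88, 2.03 and 1.68, and the phospholipase gene *Plcg1* among the 3 lowest, at -1.95, -1.42 and -1.61.

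The IP of *Camk1d* was read over a gene span of which exons make up 1.76%, the smallest share among the members. Its level in L2C inputs, 216 CPM before TMM scaling, was 20.5 times its exon level in Ctrl embryos of the same stage, 10.5 CPM, a ratio exceeded by 2.02% of the 14184 genes with a mean of at least 10 counts in both. The median ratio over these genes was 1.02. *Calm2*, *Calm3* and *Ppp3ca* lay on the other side, with exon levels 9.71, 2.38 and 2.31 times the span level. The other members had ratios of span to exon between 0.680 and 1.33. *Ppp3ca* and *Camk2d* had under 6 CPM on either measure. The 2 experiments differ in alignment and counting. For the library preparation of both, the labels name a stranded kit and the methods of the study a protocol after Smart-seq2, and the part of introns in the *Camk1d* values was not tested. The annotation has 1 other gene inside the *Camk1d* span, the pseudogene *Gm13216*, which had no counts in any SLIM-seq library. Other genes inside the spans of the other members reached at most 0.437 CPM.

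**Figure D3:**
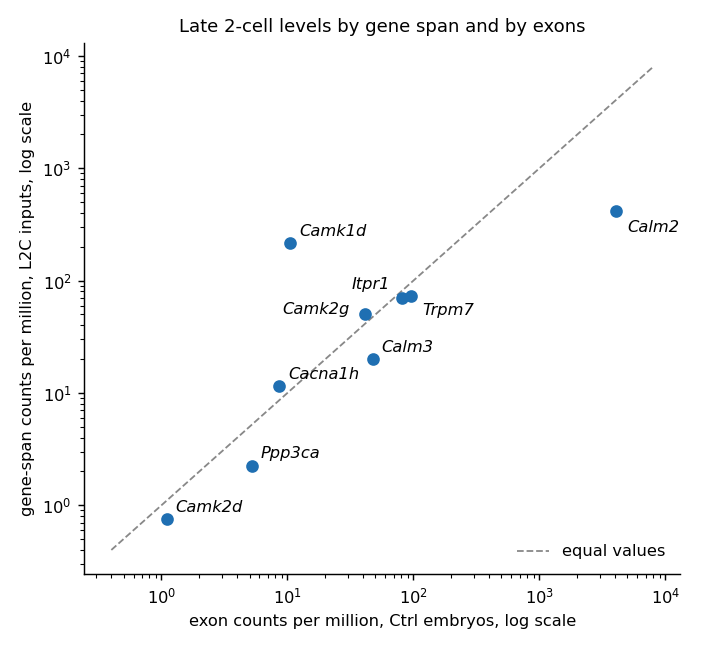
Mean CPM over the gene span in L2C inputs (vertical) against mean exon CPM in L2C Ctrl embryos (horizontal) for the 9 members, both on log axes, with a dashed line at equal values. *Camk1d* lies 20.5 times above the line and *Calm2* 9.71 times below it.

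The letters GGACT, the DNA form of the sequence most often found around m6A, were counted on the sense strand of 1 transcript per gene as a description. *Camk1d* held 8 in 6962 bases of spliced transcript, or 1.15 per kb, where 58.3% of 21782 protein-coding genes had as many per kb or fewer and the median was 1.02. *Itpr1* held 8 (0.811 per kb), *Cacna1h* 9 (1.09 per kb), *Camk2g* 5 (1.35 per kb) and *Calm2* 2 (1.66 per kb). *Calm3* held 3 (1.31 per kb), *Ppp3ca* 4 (1.82 per kb), *Trpm7* 3 (0.422 per kb) and *Camk2d* 3 (0.543 per kb). Of all protein-coding genes 87.1% held at least 1. The 1 match in the coding sequence of *Camk1d* starts at coding base 606, at chromosome 2, 5339213 to 5339217, minus strand, GRCm38. It is shown with 10 bases on each side, with the match in capitals, and no site of m6A was mapped by these data.
Camk1d coding match: gcaaagctgtGGACTgctggtccat

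The third question was how these RNAs differed in L2C embryos after knockdown of *Ythdc1*. The target itself was at 1080, 1098 and 994 CPM in the Ctrl libraries and 523, 541 and 519 CPM in the KD libraries, 2.01-fold lower (log2 -1.0, SE 0.06, edgeR adjusted p = 1.3e-10). *Camk1d*, *Itpr1*, *Camk2g* and *Cacna1h* were lower in KD, *Calm3* was slightly higher, and *Calm2*, *Trpm7* and *Ppp3ca* were not called. *Camk1d*, *Itpr1*, *Calm3*, *Trpm7* and *Ppp3ca* were tested among the 7433 genes of the merged table with 3 libraries per group, where 70.9% of genes were called, 33.5% higher and 37.4% lower, and CPM there are shares of the counts in that table. *Camk2g*, *Calm2* and *Cacna1h* lie beyond the part of the annotation that KD replicate 3 covers, and were tested with 2 KD and 3 Ctrl libraries among 17074 genes, where 66.8% were called, 30.5% higher and 36.4% lower. Of the 8 members tested 1 rose and 4 fell, a share called no higher than the background. Under the call rule of the study, an unadjusted p under 0.05 with a log2 difference over 1 either way, applied here to edgeR values where the study used DESeq2, 2 members were called, *Camk1d* and *Cacna1h*, where 37.2% of genes in the merged table and 38.9% in the whole annotation were. By library size alone the median log2 difference of all genes went from -0.06 to -0.19 in the merged table.

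*Camk1d* held 28.9, 29.3 and 22.6 CPM in Ctrl and 11.2, 10.6 and 9.49 CPM in KD, from 78 to 163 and 38 to 49 exon counts. The groups were far apart, 2.61-fold (log2 -1.38, SE 0.19, edgeR adjusted p = 2.5e-06). The study chose this gene as a candidate from its own lower, m6A-tagged genes in these libraries. In separate PCR experiments the study reported that *Camk1d* RNA was associated with Ythdc1 and was lower after knockdown. With transcription inhibited, the study also reported faster decay of the RNAs it tested, this gene included. Those PCR experiments are not part of the data used here, and the difference of *Camk1d* in these libraries is not independent evidence. *Itpr1*, depleted from the IP, was also lower in KD, at 111, 120 and 128 CPM against 219, 215 and 193 CPM in Ctrl (log2 -0.81, SE 0.09, edgeR adjusted p = 1.7e-07). *Cacna1h*, depleted from the IP too, was at 3.15 and 4.28 CPM in KD against 9.09, 7.20 and 8.97 CPM (log2 -1.19, SE 0.25, edgeR adjusted p = 5.1e-04), from 34 and 40 counts in KD.

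*Camk2g* was at 28.0 and 32.5 CPM in KD against 36.6, 41.8 and 43.0 CPM in Ctrl (log2 -0.42, SE 0.12, edgeR adjusted p = 0.0053), a call that was lost without KD replicate 1 (log2 -0.30, edgeR adjusted p = 0.091). *Calm2*, at 3869 and 3568 CPM against 4215, 4141 and 3593 CPM, overlapped between the groups (log2 -0.10, SE 0.07, edgeR adjusted p = 0.24). It was called at -0.18 without Ctrl replicate 3 (edgeR adjusted p = 0.0023), at -0.17 by library size alone (0.026) and at -0.17 in a replicate block (0.0016). *Calm3* was at 133, 147 and 144 CPM in KD against 120, 118 and 125 CPM in Ctrl (log2 0.23, SE 0.09, edgeR adjusted p = 0.025). This small rise lost its call by library size alone (log2 0.10, edgeR adjusted p = 0.29), with no filter (0.053) and without KD replicate 2, KD replicate 3 or Ctrl replicate 2 (edgeR adjusted p 0.066 to 0.077).

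*Trpm7* was at 289, 277 and 273 CPM in KD against 267, 260 and 211 CPM, with no overlap but no call (log2 0.18, SE 0.08, edgeR adjusted p = 0.068). Without Ctrl replicate 1 it was called at 0.25 (edgeR adjusted p = 0.027). *Ppp3ca* overlapped between the groups, at 16.7, 17.5 and 14.7 against 11.9, 15.1 and 12.7 CPM (log2 0.29, SE 0.20, edgeR adjusted p = 0.2). *Camk2d* had too few counts for the filter of the 6-library test, with 2, 1 and 1 exon counts in KD and 11, 21 and 8 in Ctrl, and it passed the filter in the 5-library test (log2 -2.78, edgeR adjusted p = 0.0043). That estimate rests on 3 counts over the KD libraries used.

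**Figure D4:**
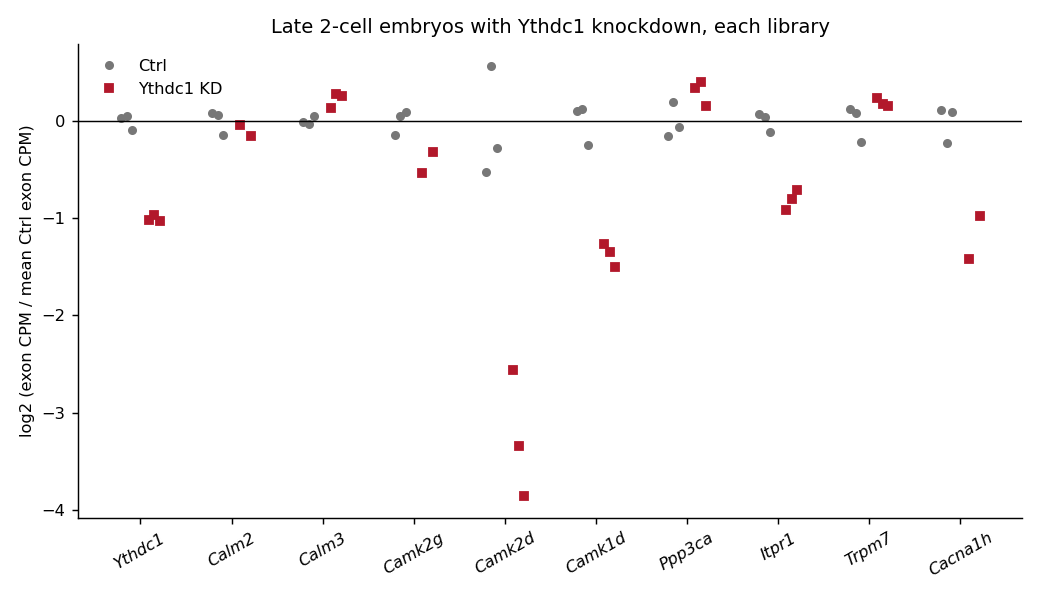
Log2 of each library's exon CPM over the mean of the 3 Ctrl libraries, for *Ythdc1* and the 9 members in L2C embryos (circles Ctrl, squares KD, with 2 KD libraries for *Calm2*, *Camk2g* and *Cacna1h*). Every KD library lies below every Ctrl library for *Ythdc1*, *Camk2g*, *Camk2d*, *Camk1d*, *Itpr1* and *Cacna1h*, *Calm2* and *Ppp3ca* overlap, and *Camk2d* rests on 1 or 2 counts per KD library.

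Of the 61 pathway genes 45 were tested in KD, with 8 higher and 23 lower and a median log2 change of -0.34, against -0.09 over all genes of the whole annotation, of which 30.5% were higher and 36.4% lower. The IP3 kinase gene *Itpka* was at 0 in the 3 Ctrl libraries and averaged 4.81 CPM in KD. *Camk1* was higher (log2 2.87, SE 0.43, edgeR adjusted p = 8.5e-06), and *Wee2*, a kinase gene of metaphase II exit that acts downstream of CaMKII, was lower (log2 -1.59, SE 0.07, edgeR adjusted p = 2.8e-12). Markers differed between the groups. The 6 markers of the 2-cell stage summed to 1107 to 1213 CPM in Ctrl and 319 to 356 CPM in KD, and the 7 oocyte markers to 1534 to 1682 CPM and 739 to 815 CPM. The 8 cumulus markers summed to 28.5 to 34.0 CPM in Ctrl and 38.3 to 41.7 CPM in KD, and the 5 sperm markers to 2.10 to 4.13 CPM and 0 to 0.107 CPM. Their part in the differences of the members was not tested.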

How the data were processed

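The authors made the SLIM-seq files with kallisto and deposited estimated counts and TPM for 55471 genes, each gene 1 target spanning exons and introns. For KD and Ctrl libraries the authors trimmed with Trimmomatic, aligned with HISAT2 and deposited raw exon counts from featureCounts 2.0.1 on GRCm38. No strand option is given in the file headers. The merged count table and the file of KD replicate 3 end on chromosome 7, at 46.4% of genes. Estimated counts were rounded. edgeR 4.0.16 (R 4.3.3) was used with TMM scaling, its filter on low counts, the quasi-likelihood test, and BH adjustment over all genes tested. SLIM-seq libraries were fitted together, inputs also on their own, KD on the merged table and, beyond it, on 5 libraries. Depth was 11107421 to 39739950 counts per SLIM-seq library, which gives low precision for *Camk2d* and *Calm3*. DESeq2 1.42.0, library size alone, no filter, a replicate block, only the stages compared, thresholds after the call rules of the study and each library left out were the alternatives. Tables used Python 3.11.15, pandas 2.3.3 and numpy 2.4.6, figures matplotlib 3.10.9. The fits were tested on simulated data.

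Members and lists were chosen with earlier results of these data known. 1 gene of the pathway list is not reported here. Besides the members and *Ythdc1*, pathway genes named are among the 3 with the largest called changes in each direction with a mean of at least 10 counts, and *Camk1d* and *Camk2g* have the 3 genes of highest r. CPM in the text are TMM-scaled unless stated otherwise.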

Additional observations from a re-analysis of the deposited data

Results flagged for a closer look

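The differences of IP enrichment between stages were called for 4 of the 9 members in at least 1 of the 3 stage comparisons, as they were for 24.6% of all genes tested. For *Camk1d* the log2 IP/input differed by -1.89 from MII to L1C and by 1.61 from L1C to L2C. For *Camk2g* it differed by -0.65 from L1C to L2C, for *Camk2d* by 2.17 from MII to L2C and for *Itpr1* by 0.56 from MII to L2C. Each stands here because the interaction of stage and IP had an edgeR adjusted p under 0.05. *Camk2d* rests on 12 to 32 counts per MII input and 17 to 24 per L2C input.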

How the results depend on the processing

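The number of members called at MII in the IP was 3, and it became 5 with DESeq2 (40.8% of all genes called), 6 by library size alone (42.4%), 5 with no filter on low counts (21.9%) and 5 with only the MII libraries fitted (55.8%). At L2C the 8 called became 5 under the study's thresholds for p, log2 and input counts applied to edgeR values without its condition on single replicates, which count enriched RNAs only (24.3% of all genes met it), and in KD the 5 became 2, *Camk1d* and *Cacna1h* (37.2% of genes in the merged table and 38.9% of the whole annotation met it). For the change of IP enrichment from MII to L1C the 1 became 3 with DESeq2 (10.1% of all genes called), 2 by library size alone (8.27%) and 2 with no filter (4.53%). The cause was not tested. With each library left out in turn, the members called ranged from 3 to 4 for the IP at MII (31.8% to 38.7% of all genes called), 2 to 6 at L1C (26.9% to 34.2%) and 7 to 8 at L2C (34.6% to 43.7%). They ranged from 5 to 8 (48.3% to 55.5%), 8 to 9 (78.6% to 82.1%) and 8 to 9 (80.8% to 85.0%) for the RNA changes from MII to L1C, L1C to L2C and MII to L2C, and from 1 to 2 (5.21% to 7.81%), 2 to 3 (5.63% to 9.06%) and 2 to 3 (16.0% to 20.5%) for the changes of IP enrichment in the same order. In KD they ranged from 4 to 7 (66.2% to 71.3% in the merged table, 56.7% to 67.6% in the whole annotation). The IP at L1C had 3 called without L1C input replicate 2 or 3 or L1C IP replicate 2, and 2 without L1C IP replicate 3. The RNA change from MII to L1C had 5 called without MII input replicate 3 or L1C input replicate 2, and the change of IP enrichment from MII to L1C 2 without L1C input or IP replicate 3.

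Under these alternatives no called member changed direction, while *Camk1d* from MII to L2C, called at 0.57, was at -0.16 in the log2 of mean TPM. Uncalled values near 0 changed direction. *Camk2g* at MII became 0.08 by library size alone. For the change of IP enrichment from MII to L1C, *Calm2* became -0.05 with only the stages compared (-0.14 to 0.26 with libraries left out) and *Ppp3ca* -0.0031 with DESeq2 and -0.06 with only the stages compared (-0.09 to 0.12). From L1C to L2C, with only the stages compared, *Calm2* became -0.06 (-0.08 to 0.29), *Calm3* -0.09 (-0.36 to 0.50) and *Trpm7* -0.14 (-0.13 to 0.20), and *Trpm7* was -0.0006 with DESeq2 and -0.0041 by library size alone. From MII to L2C, *Calm2* became -0.01 with only the stages compared (-0.02 to 0.37), and *Cacna1h* -0.02 with DESeq2 and -0.12 with only the stages compared (-0.09 to 0.29).

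Per the study, IP and input RNA of a stage shared batches, but no source says that a replicate number marks a batch. Deviations of same-numbered libraries correlated with r from -0.154 to 0.160, so the samples were not treated as pairs, and a pairing is not excluded by this. The replicate block left 1 of the 2 members called for the change of IP enrichment from MII to L2C (16.3% of all genes called), where *Itpr1* had an adjusted p of 0.054. It also ended the call of *Camk2g* in the L1C IP (edgeR adjusted p = 0.092) and brought calls for *Calm2* (log2 -0.17) and *Trpm7* (log2 0.19) in KD.

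Depth limits *Camk2d* at all stages (12 to 70 counts per input library), *Calm3* at MII and L1C (19 to 106) and *Ppp3ca* at L2C (55 to 68).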
